A study of Mus musculus with 9 samples.

Results

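The 3 sham libraries of a mouse spinal cord series were described here on their own, as the baseline of that series. They are 3 of 9 libraries, and they were chosen by their label, not by any measured value. Per the labels, the sham mice were wild type, received no treatment and were killed at the same point as the injured groups, 4 weeks after spinal cord injury. The labels name 3 sham mice without saying which mouse gave which library, and they give no age and no sex. Neurons that carried a fluorescent tracer, called TRDA in the labels, were drawn by glass electrode out of slices of fresh cord, and cDNA was made by Smart-seq2, which copies whole transcripts from small amounts of RNA. The titles speak of single-cell sequencing, while the design text gives 1 µg of total RNA as the input to cDNA synthesis, and the number of neurons in a library is not stated. The libraries are called sham 1, 2 and 3 below, and values follow that order. No sham surgery is described in the labels, and no other group was used here, so every statement below concerns levels, ranks and spread within these 3 libraries and no test between groups was run.

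Spinal motoneurons are large cholinergic neurons that carry the commands of the cord to muscle. They make acetylcholine with choline acetyltransferase (Chat), load it into vesicles with the vesicular acetylcholine transporter (Slc18a3) and recover choline with a high-affinity transporter (Slc5a7). Their long axons are rich in neurofilaments, including peripherin (Prph), and they sit among oligodendrocytes, astrocytes, microglia and the endings of many other neurons, so cytoplasm drawn from a slice can carry RNA of those neighbours.

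The promoter windows of the 3 genes given as markers of these cells are shown because they differ in base composition and motifs. Chat lies on the minus strand of chromosome 14, with Slc18a3 wholly inside it on the same strand and overlapping no Chat exon of the GENCODE M21 annotation. Prph lies on the plus strand of chromosome 15. Each line holds 250 bases before and 50 bases after the start of the gene, 5′ to 3′ in the direction of transcription, from RefSeq on GRCm38.p6, at chr14:32465860-32466159 for Chat, chr14:32464801-32465100 for Slc18a3 and chr15:99054924-99055223 for Prph. Capitals mark exact matches on either strand to the motif CCAAT, the motif TATAAA or the motif GGGCGG, and the last of these reads CCGCCC when it lies on the other strand.
Chat: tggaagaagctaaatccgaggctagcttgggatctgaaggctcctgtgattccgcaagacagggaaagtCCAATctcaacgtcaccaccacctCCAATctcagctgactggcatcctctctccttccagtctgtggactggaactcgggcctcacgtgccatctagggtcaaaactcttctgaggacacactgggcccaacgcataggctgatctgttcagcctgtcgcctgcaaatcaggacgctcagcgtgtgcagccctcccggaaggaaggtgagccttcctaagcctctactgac
Slc18a3: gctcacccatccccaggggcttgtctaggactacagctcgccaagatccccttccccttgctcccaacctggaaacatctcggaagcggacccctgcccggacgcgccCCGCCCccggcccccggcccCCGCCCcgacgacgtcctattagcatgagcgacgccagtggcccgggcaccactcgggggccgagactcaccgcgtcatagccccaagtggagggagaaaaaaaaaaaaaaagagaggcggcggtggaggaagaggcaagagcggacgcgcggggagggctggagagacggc
Prph: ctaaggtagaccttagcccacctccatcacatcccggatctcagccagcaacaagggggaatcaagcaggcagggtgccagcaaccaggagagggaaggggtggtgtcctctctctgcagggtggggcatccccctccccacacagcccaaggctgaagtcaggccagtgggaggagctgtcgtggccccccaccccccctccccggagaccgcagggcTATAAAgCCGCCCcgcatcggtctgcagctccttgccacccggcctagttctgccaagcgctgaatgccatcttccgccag

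The Slc18a3 window held 27 CpG dinucleotides and 2 GGGCGG motifs, and the Chat window 10 CpG dinucleotides and 2 CCAAT motifs. The Prph window held 10 CpG dinucleotides, 1 GGGCGG and 1 TATAAA, which began 31 bases before the start. Over the 14064 of 21847 protein-coding genes with a single window in the table, the median was 13 CpG dinucleotides, and 46.9% held GGGCGG, 39.6% CCAAT and 9.59% TATAAA. These are matches of letters and say nothing of whether a factor binds there.

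Levels are given as FPKM, the count of a gene scaled by its exonic length and by the library total, as deposited. Totals of 12641801, 13735840 and 17675948 counts were assigned to genes, and 23929, 22061 and 22752 genes had at least 1 count. A gene was called detected where its FPKM was at least 1 in all 3 libraries, and 9069 genes met this. Sham 1 stood apart from the other two. The correlation of log2(FPKM + 1) across the detected genes was Pearson r = 0.947 for sham 1 with 2, 0.958 for sham 1 with 3 and 0.987 for sham 2 with 3, given as a description because genes are not independent replicates. The level of a gene lay within 2-fold for 98.1% of genes between sham 2 and 3, against 64.8% and 78.3% for the pairs with sham 1. The median CV, the SD over the mean of the FPKM values, was 30.1% over the 3 libraries and 11.7% over sham 2 and 3 alone. Counting error alone, from the mean count over all 3 libraries, would give a median of 5.26%. These values rest on unlike numbers of libraries, so they are not strictly comparable. Values are therefore given per library, so that each can be read without sham 1.

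The difference of sham 1 was not the same at all levels of mean FPKM. Of the 61 genes with a mean of 1000 FPKM or more, 80.3% were highest in sham 1. From 100 to 1000 FPKM 25.2% were highest and 65.4% lowest there, and 85.4% of the 2389 genes between 10 and 50 FPKM were lowest there. The mean includes sham 1, so a gene can reach the top class through that library. Apod and Sparc did so, with means of 908 and 831 FPKM without sham 1. The 100 most abundant genes held 58.1% of all FPKM in sham 1, 36.7% in sham 2 and 41.5% in sham 3. It took 57, 222 and 167 genes to reach 50% of the summed FPKM. The median detected gene stood at 0.627 of the mean of the other two libraries in sham 1. With edgeR's TMM factors, a scaling that matches the bulk of genes, that ratio was 0.890, a shift of 0.51 on the log2 scale, and the share of genes lowest in sham 1 went from 78.3% to 52.1%. A level in sham 1 should be read against that shift. Below, single genes are called steady or variable by their deposited FPKM. Mitochondrially encoded genes made up 7.36%, 3.39% and 4.74% of counts, and Malat1, a nuclear noncoding RNA, 1.51%, 0.162% and 0.155%, so both were highest in sham 1.

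**Figure D1:**
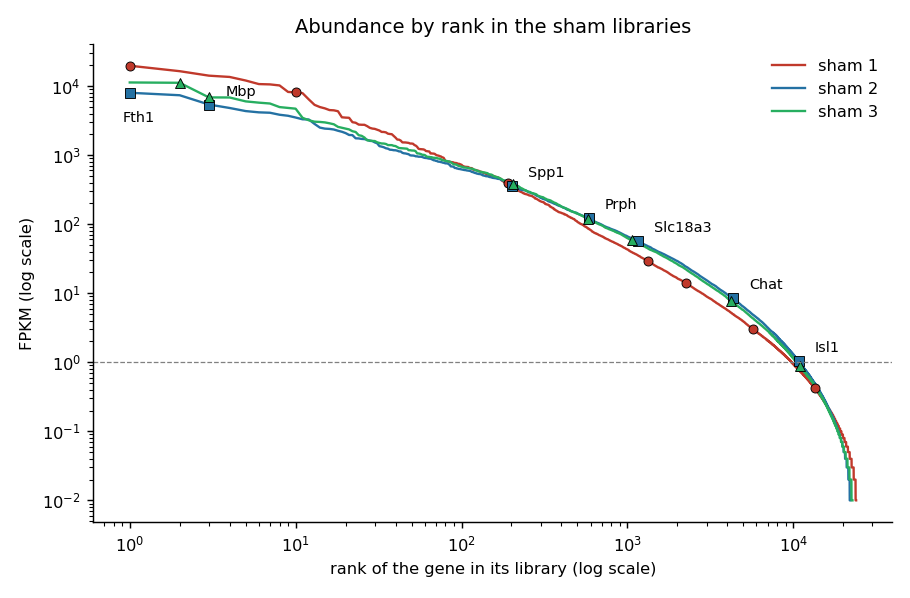
FPKM of each gene (y axis, log scale) against its rank in the same library (x axis, log scale), 1 line per sham library, with 7 genes marked by circles (sham 1), squares (sham 2) and triangles (sham 3). The dashed line is 1 FPKM; the line of sham 1 starts higher and then falls under the other two from the rank of Spp1 to that of Isl1, and Chat sits at ranks 5696, 4315 and 4228.

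The 9069 detected genes spanned 4 orders of magnitude. Between 1 and 10 FPKM lay 5552 of them, between 10 and 100 lay 2881, between 100 and 1000 lay 575, and 61 stood at 1000 FPKM or more. Protein-coding genes made up 8138 of the 9069 (89.7%), which is 37.2% of the 21897 protein-coding genes in the table. Counts of detected members in the lists of protein-coding genes below are to be read against that 37.2%. Among the other detected genes 397 were processed pseudogenes, 156 lincRNAs and 152 antisense RNAs. The threshold cuts through a dense part of the range: 280 genes had a lowest value from 1.0 to 1.1 FPKM and 355 from 0.9 to 1.0. A count in all 3 libraries was found for 19008 genes and in any of them for 27688. Of the 5642 genes counted in a single library, 3029 belonged to sham 1, although it was the shallowest.

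The most abundant transcripts were those of iron storage, mitochondria, myelin and glia. Fth1, the heavy chain of ferritin, led with 19698, 7996 and 11150 FPKM, and the mitochondrial 16S ribosomal RNA mt-Rnr2 followed with 13545, 7359 and 11268. Apoe, a lipid carrier made by astrocytes and microglia, stood at 16414, 3501 and 3472 FPKM. It was far higher in sham 1 than in the other two, which were equal within 1%, while Cst3, a secreted inhibitor of cysteine proteases, had 10680, 4812 and 5997. Mbp, which encodes myelin basic protein, reached 8084, 5399 and 6848 FPKM and ranked among the 10 highest in every library. The 40 genes of highest mean FPKM held 9 nuclear-encoded subunits of the respiratory chain, namely Cox6a1, Cox8a, Cox4i1, Uqcr11, Uqcr10, Cox6b1, Ndufa2, Ndufb9 and Ndufa1, and 6 mitochondrially encoded genes, namely mt-Rnr2, mt-Cytb, mt-Nd1, mt-Co1, mt-Rnr1 and mt-Nd4. They also held Apoe, Aldoc and S100b of the astrocyte list, Mbp and Apod of the oligodendrocyte list, and the metallothioneins Mt1 and Mt3. The pan-neuronal list was represented by Stmn3, a stathmin that binds tubulin, at 3491, 2418 and 2889 FPKM. The tubulin Tuba1a of the cytoskeletal list had 1237, 1484 and 1630, and 75.5% of its 50-base stretches also occur in other genes. Among the rest were Gm23935, Tmsb4x, Ubb, Ckb, Ldhb, Ptgds, Calm2, Actb, Mif, Aldoa, Rplp1, Dbi and Sparc. Gm23935 is a 57-base gene of the miRNA class on chromosome 16 whose every 50-base stretch also occurs in another annotated gene. Its 14141, 1598 and 5586 FPKM rest on that short length and on reads that cannot be told from those of its copies.

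The cholinergic genes were present in every library at middling levels. Slc18a3 had 14.1, 56.2 and 58.0 FPKM from 429, 1863 and 2474 counts, and sham 1 lay well under the other two, which were close. Ache, the enzyme that breaks acetylcholine down, had 22.1, 43.0 and 44.2 FPKM. Chat itself stood at 3.03, 8.44 and 7.6 FPKM from 180, 545 and 632 counts, at percentiles 76.2, 80.4 and 81.4 among the genes with a count in the same library. The choline carrier Slc44a1 had 12.1, 18.3 and 16.5 FPKM, Prima1, which anchors Ache in the membrane, 7.64, 10.8 and 11.02, and Slc5a7 1.71, 3.24 and 2.92. Colq, the collagen tail of Ache, stayed under 1 FPKM in all 3, so 6 of the 7 genes of acetylcholine handling were detected. All 6 were lowest in sham 1 in FPKM, as were 78.3% of all detected genes, and 5 of the 6 remained lowest after TMM scaling, against 52.1% of all. Within a library Slc18a3 exceeded Chat 4.64-, 6.66- and 7.63-fold, a ratio that no scaling of libraries moves. It does depend on the exonic lengths used, 2413 bases for Slc18a3 and 4703 for Chat. Slc18a3 lies wholly inside Chat on the same strand, and whether reads of unspliced Chat RNA were counted to it was not tested.

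Prph, the type III intermediate filament of neurons with axons that leave the cord, had 29.1, 121 and 120.5 FPKM, at percentiles 94.4, 97.4 and 97.5. Sham 2 and 3 were nearly equal and sham 1 lay well under both. After TMM scaling Prph stood at 36.6, 103 and 113, Slc18a3 at 17.7, 47.6 and 54.3 and Chat at 3.82, 7.14 and 7.12, so all 3 markers stayed lowest in sham 1. The genes whose percentiles were nearest to those of Chat in the 3 libraries, by the largest of the 3 differences, were Pus1, Gm16062, Bysl, Pstpip1, Ccnc, Ppp6c, Uros, Ap3s2, Amacr and Shmt2. The largest difference was 0.224 percentile points for Pus1, a tRNA pseudouridine synthase, and 1.02 for Shmt2. The likeness is one of level over 3 libraries and nothing more.

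**Figure D2:**
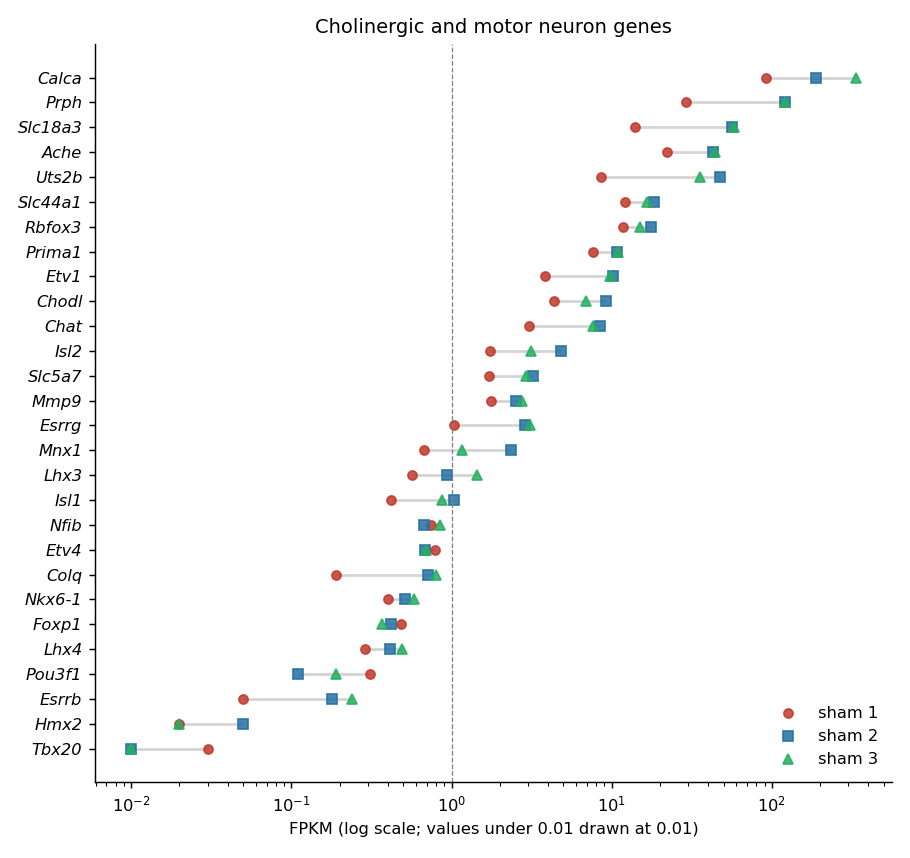
FPKM (x axis, log scale) of cholinergic genes, motoneuron transcription factors and selected motoneuron genes (y axis), with a circle for sham 1, a square for sham 2, a triangle for sham 3 and a grey bar over their range; values under 0.01 are drawn at 0.01 and genes with no count are left out. The dashed line is 1 FPKM, and the circle of sham 1 lies to the left of the other two for Prph, Slc18a3, Ache, Uts2b and Chat.

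Genes of motoneuron output and subtype ranged from steady to widely varying. Spp1, which encodes osteopontin, had 389, 359 and 381 FPKM, the highest of the 24 genes of this list. It was also the steadiest of the detected members in FPKM (CV 4.13%). Spp1 thus did not share the general shift of sham 1, and after TMM scaling it would be higher in that library. Calca, which encodes the peptide CGRP, had 91.8, 188 and 336 FPKM, and its relative Calcb 29.2, 106 and 132. Both were lowest in sham 1 and highest in sham 3, and Calca exceeded Calcb in every library. Uts2b, the gene of a urotensin peptide, had 8.62, 47.4 and 35.7 FPKM, and the related Uts2 had 60.3, 183 and 309.5. Vamp1, the vesicle protein of motor endings, had 73.9, 135 and 119 FPKM. Genes associated with fast motoneurons were lower: Chodl had 4.35, 9.28 and 6.89 FPKM and Mmp9 1.77, 2.53 and 2.77. Sv2a, Syt2, Ahnak2, Sv2b, Gfra1 and Stk32a were also detected, each under 20 FPKM, which brought the detected members to 14 of 24. Chrna2, Nos1, Vipr2, Agrn, Nrg1, Aldh1a2, Htr1d, Cpne4, Kcnq5 and Rreb1 were not.

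Most of the genes listed as motoneuron transcription factors were under the threshold. The list of 17 also holds Rbfox3, which encodes the neuronal splicing factor NeuN. It had 11.8, 17.6 and 15.0 FPKM and the transcription factor Etv1 3.85, 10.3 and 9.82. Isl2 had 1.73, 4.81 and 3.12 FPKM, and Esrrg, a nuclear receptor associated with gamma motoneurons, 1.04, 2.88 and 3.08. These 4 of 17 were detected, against 37.2% of all protein-coding genes. Mnx1, a homeodomain factor of motoneurons, had 0.67, 2.36 and 1.16 FPKM from 19, 73 and 46 counts, and Isl1 had 0.42, 1.03 and 0.87 from 21, 56 and 61. Mnx1 missed the threshold in sham 1, and Isl1 in sham 1 and 3. Lhx3, Nfib, Etv4, Nkx6-1, Foxp1, Lhx4, Pou3f1, Esrrb and Hmx2 were counted at lower levels, and Tbx20 had 0.03 FPKM in sham 1 and 0.0 in the others.

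Taken as the list of 11 defining markers (Chat, Slc18a3, Slc5a7, Prph, Isl1, Isl2, Mnx1, Calca, Uts2b, Chodl and Mmp9), 9 were detected. The median member stood at percentile 76.2, 80.4 and 80.3, a mean of 79.0 ± 2.43 (SD, n = 3), and 80.4 without sham 1. All 9 were lowest in sham 1 in FPKM, as were 78.3% of all detected genes. After TMM scaling 8 of the 9 were, against 52.1% of all. The summed level of the 11 was 157, 444 and 576 FPKM. In libraries of this kind fewer cells of a type and less RNA per cell cannot be told apart.

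Genes of neurons in general were high. All 29 pan-neuronal genes were detected, with medians of 60.2, 74.4 and 84.6 FPKM at percentiles 96.8, 95.9 and 96.6. The neurofilament light chain Nefl had 674, 986 and 1003 FPKM, the medium chain Nefm 274, 198 and 192, and the heavy chain Nefh 230.3, 208.5 and 249. Nefl exceeded Nefm 2.46-, 4.97- and 5.23-fold. Sncg, the gene of gamma-synuclein, had 433, 685 and 732 FPKM, the neuronal tubulin Tubb3 374, 617 and 730, the ubiquitin hydrolase Uchl1 327, 449 and 555.5, and Snap25, a SNARE of synaptic release, 463, 367 and 273. Snap25 ran in the opposite order to Tubb3, highest in sham 1 and lowest in sham 3. The least variable member was Elavl3, an RNA-binding protein, at 6.66, 7.01 and 7.01 FPKM with a CV of 2.93%. The most variable was Snhg11, which GENCODE M21 classes as protein-coding, at 38.9, 18.9 and 16.2. In contrast to the motoneuron markers, 5 of the 29 were lowest in sham 1 after TMM scaling, against 52.1% of all detected genes. On that scale 17 were highest there, against 31.2% of all.

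The machinery of axon and synapse followed the same order of size. Of 34 cytoskeletal genes 32 were detected, and Stmn3, Tuba1a, Tubb4a, Tuba1b, Map1lc3a, Nefl, Tubb4b and Tubb3 led them. Mapt, which encodes tau, was the steadiest in FPKM, at 42.3, 43.9 and 46.8. Among 33 subunits and adaptors of the axonal motors 28 were detected, from the dynein light chain Dynlrb1 at 618.5, 858 and 808 FPKM and the dynactin subunit Dctn3 at 364, 523.5 and 549 down to the dynein heavy chain Dync1h1 at 2.41, 2.95 and 3.92. The neuronal kinesin heavy chains Kif5c and Kif5a were steady in FPKM, at 43.8, 46.7 and 44.4 and at 26.9, 28.5 and 29.5. Like Mapt, they thus did not share the general shift of sham 1. Of 35 genes of vesicle release 31 were detected, with Rab3a at 619, 894 and 733 FPKM and Cplx1 at 382, 638 and 619. Unc13a, a priming factor, stayed at 0.52, 0.58 and 0.51 FPKM. Long genes run low in general here: the median detected gene with up to 1000 exonic bases had 51.8, 46.8 and 53.9 FPKM, and that with over 8000 had 2.27, 3.16 and 2.9. Whether the exonic length in the table, which can exceed that of the main transcript, accounts for this was not tested.

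Ion channel genes were mostly low. Among those of the voltage-gated sodium channel, the pore-forming Scn8a had 14.9, 5.39 and 8.77 FPKM and Scn1a 7.75, 9.64 and 8.43, and Scn8a exceeded Scn2a 18.9-, 8.84- and 19.1-fold. The auxiliary Scn4b had 20.0, 19.6 and 31.8, while Scn10a had no count in any library. Of 13 sodium channel genes 5 were detected, against 37.2% of all protein-coding genes. Potassium channel genes were detected for 25 of 47, to be read against the same share. Kcnk1, a leak channel of the 2-pore family, led with 29.5, 82.0 and 81.9 FPKM, then Kcng4, a silent subunit, with 8.75, 31.7 and 26.5, and both were lowest in sham 1. Kcna1, Kcnab3, Kcnip3, Kcnab2, Kcnj10 and Kcnc1 followed. The least variable detected member was Kcnj3 at 1.27, 1.3 and 1.35 FPKM. Of 20 calcium and HCN channel genes 5 were detected (Cacng2, Hcn2, Cacnb4, Cacnb1 and Cacna2d3), and no pore-forming calcium channel subunit was among them: the highest, Cacna1a, stood at 0.41, 0.27 and 0.32 FPKM.

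Genes of inhibitory receptors stood above those of glutamate receptors, with list medians of 1.84, 1.77 and 1.65 FPKM against 0.88, 0.98 and 0.89. Glrb, the beta subunit of the glycine receptor, had 22.5, 32.7 and 24.6 FPKM, the adult alpha subunit Glra1 25.9, 17.5 and 20.8, and the scaffold Gphn 12.6, 16.6 and 15.3. Glra1 exceeded Glra2 74.1-, 35.7- and 57.9-fold. Gabra5 and Gabbr1 were among the highest of the GABA receptor genes, and 12 of 20 genes of the inhibitory list were detected. Among 25 glutamate receptor genes 9 were detected, against 37.2% of all protein-coding genes. The obligate NMDA subunit Grin1 was first at 7.08, 6.06 and 6.04 FPKM. The AMPA subunits Gria1 (3.09, 4.04 and 3.08), Gria4 (3.66, 2.46 and 2.87), Gria3 and Gria2 followed, and Gria2 was lower than Gria1 in every library, at 0.657, 0.319 and 0.354 of it. The highest of 34 genes of acetylcholine, serotonin and noradrenaline receptors was Chrna4 at 8.44, 6.65 and 7.85 FPKM, followed by Chrm2, Htr7, Adra1b and Htr3a, the 5 detected. Of 20 genes of neurotrophic receptors 8 were detected, to be read against the same 37.2%. Gfra4, a coreceptor of the GDNF family, had 30.3, 53.1 and 41.6 FPKM, Cntfr 8.02, 13.7 and 17.4, the BDNF receptor Ntrk2 4.71, 8.69 and 7.92 and the shared GDNF family receptor Ret 3.31, 5.13 and 5.96. Fgfr1, Gfra1, Il6st and Lifr were the others. The potassium-chloride cotransporter Slc12a5, which keeps chloride low in mature neurons, exceeded the importer Slc12a2 5.28-, 4.89- and 4.07-fold.

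Hox genes, whose expression along the cord marks segment identity, gave a sharply bounded pattern. Paralog groups 5 to 10 held 96.0%, 95.6% and 96.1% of all Hox FPKM, and groups 11 to 13 held 1.34%, 1.59% and 0.834%. Hoxa7 was the highest at 23.0, 30.4 and 34.7 FPKM, then Hoxb7 at 14.2, 21.7 and 14.7 and Hoxd10 at 8.01, 23.97 and 14.6. The Hox10 genes, known as markers of the lumbar cord, were all detected, with Hoxc10 at 11.4, 14.3 and 13.8 FPKM and Hoxa10 at 5.06, 10.8 and 7.58. Hoxa11 had 0.9, 2.9 and 1.39 FPKM, while the summed Hox13 genes had 0.06, 0.03 and 0.02. Of the 39 Hox genes 17 were detected, all from groups 5 to 10, and 4 had no count. The shares by group nearly coincide in the 3 libraries, including sham 1.

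**Figure D3:**
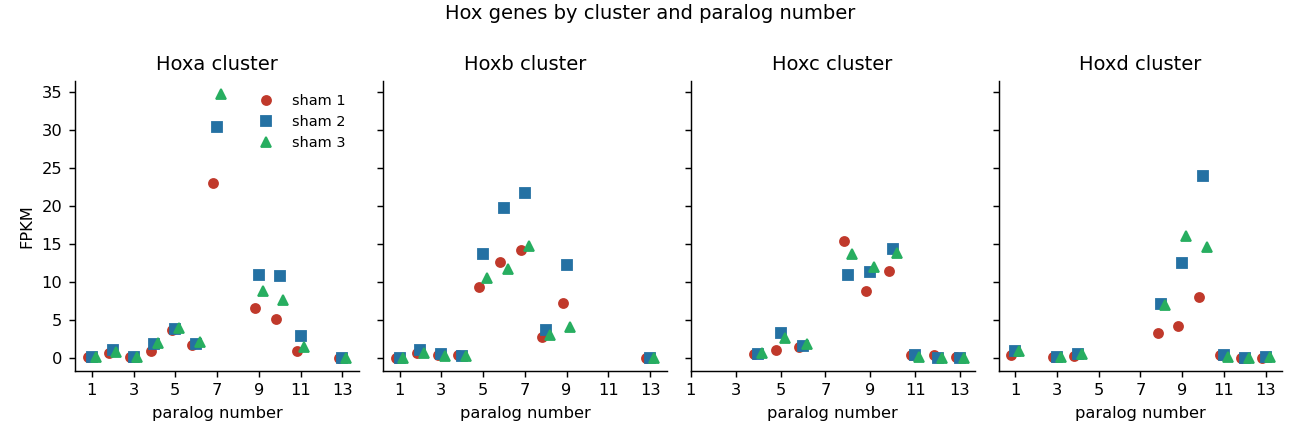
FPKM (y axis, linear) of the Hox genes by paralog number (x axis) in each of the 4 clusters, with a circle for sham 1, a square for sham 2 and a triangle for sham 3. Levels rise at number 5 and fall to near 0 at 11 in all 3 libraries, with Hoxa7 highest.

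Taken as lists, markers of oligodendrocytes and astrocytes were far above those of motoneurons. The 24 genes of oligodendrocytes and myelin had medians of 83.8, 155 and 173 FPKM at percentiles 97.5, 97.9 and 98.2, a mean of 97.8 ± 0.364 (SD, n = 3) that became 98.05 without sham 1, and a summed level of 14940, 11098 and 13303 FPKM. All but Myrf, which had 0.99 FPKM in sham 2, were detected. Besides Mbp, the myelin gene Mobp had 497, 638 and 563 FPKM, and the oligodendrocyte transcription factor Olig2 4.31, 8.49 and 9.24. In each library Mbp exceeded Chat, 2668-, 640- and 901-fold. Astrocyte genes were detected for 20 of 20, summing to 23419, 10866 and 10084 FPKM, of which Apoe made up most in sham 1. The intermediate filament Gfap had 533, 453 and 481 FPKM, the water channel Aqp4 59.9, 40.3 and 42.4, and the glutamate transporters Slc1a2 and Slc1a3 stood under 20. Microglia genes were detected for 19 of 20, from Tyrobp at 610, 179 and 141 FPKM and C1qb at 291.5, 214 and 169 down to Gpr34, with Itgam under 1. Their sum of 1810, 997 and 800 FPKM was highest in sham 1, as were 10 of the 19 in FPKM, against 11.4% of all detected genes, and 16 after TMM scaling, against 31.2%. Tmem119 was lowest there on both scales, at 8.1, 18.2 and 19.2 FPKM. P2ry12 had 6.06, 6.95 and 5.2 FPKM, and was highest in sham 1 after TMM scaling, at 7.64, 5.88 and 4.87. The part of glial RNA in the levels of genes shared between cell types was not tested.

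**Figure D4:**
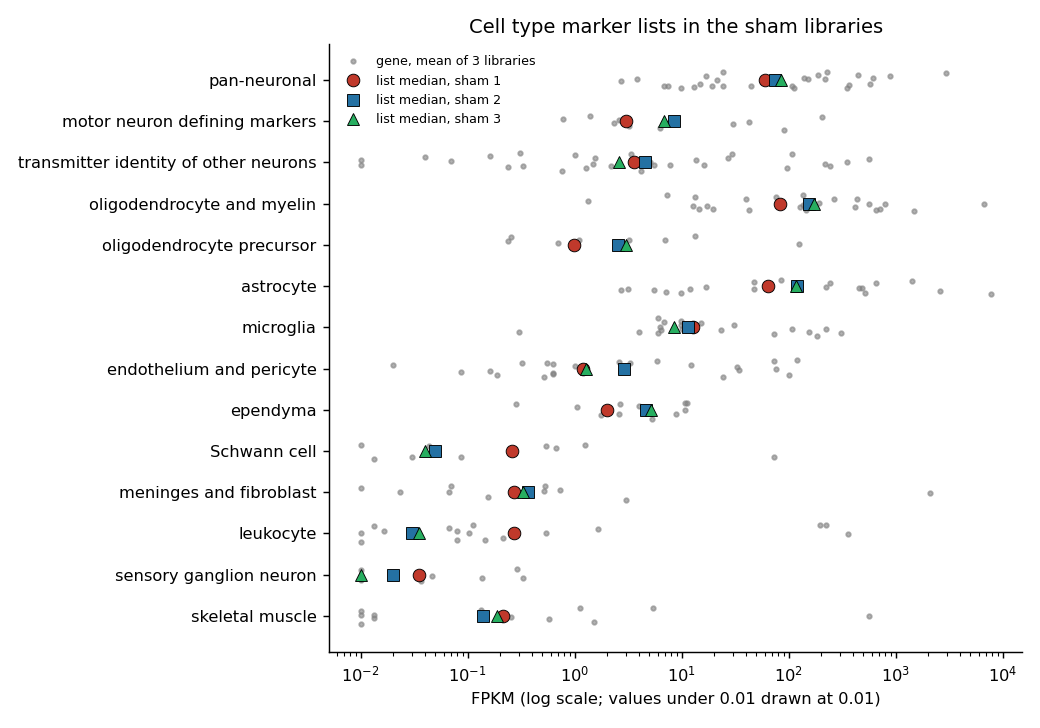
FPKM (x axis, log scale; values under 0.01 drawn at 0.01) of the genes of 14 cell type lists (y axis), with a grey point per gene at its mean over the 3 libraries and the list median in each library as a circle (sham 1), square (sham 2) or triangle (sham 3). The medians of oligodendrocyte, astrocyte and pan-neuronal genes lie above 50 FPKM and those of Schwann cell, leukocyte and sensory neuron genes under 1.

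Other residents of the cord were present at lower levels. Endothelial and pericyte genes were detected for 11 of 22, with Ly6c1 at 65.3, 192 and 100.3 FPKM and the tight junction gene Cldn5 at 48.0, 115 and 66.9. Their sum of 291, 741.5 and 437 FPKM was highest in sham 2. Ciliated ependymal genes were detected for 9 of 12, led by Tmem212 at 4.42, 14.2 and 15.0, and all 9 were lowest in sham 1 in FPKM, as were 78.3% of all detected genes. After TMM scaling 8 were lowest there, against 52.1% of all, and Cfap126 was highest, at 5.51, 4.48 and 4.27. Of 8 genes of oligodendrocyte precursors 4 were detected, but the defining Pdgfra and Cspg4 stayed under 0.4 FPKM. Bcas1, a gene of newly formed oligodendrocytes, made up most of that list with 66.8, 140 and 167.5. Of 10 genes of meninges and fibroblasts Ptgds, which oligodendrocytes also make, had 2750, 1958 and 1633 FPKM and Dcn 1.61, 4.45 and 3.03. The collagens Col1a1, Col1a2 and Col3a1 stayed under 0.3.

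Most markers of sensory ganglia, peripheral nerve and muscle were low. Of 10 measured genes of sensory ganglion neurons none was detected, with Scn10a, Mrgprd and Mrgprx1 at an FPKM of 0.0 in every library and a summed level of 1.19, 0.78 and 0.61 FPKM for the list. Of 9 Schwann cell genes only Pmp22 was detected, at 38.9, 81.9 and 97.7 FPKM, while the peripheral myelin gene Prx stood at 0.01 in sham 1 and 0.0 in the others. Of 12 skeletal muscle genes 3 were detected: Pvalb, which neurons also express, the myosin light chain Mylpf at 5.81, 4.73 and 5.75 FPKM, and the slow myosin heavy chain Myh7 at 1.11, 2.02 and 1.42. The skeletal actin Acta1 (2.11, 0.71 and 0.59) and the troponin Tnni2 (1.27, 0.19 and 0.26) passed 1 FPKM in sham 1 alone. The calcium and contraction genes Atp2a1, Myh1, Myh2, Myh4 and Tnnc2 stayed under 0.05 FPKM.

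Genes of other neurons were measurable in libraries labelled motoneuron. Pvalb, which encodes the calcium buffer parvalbumin, had 568, 478 and 653 FPKM, Calb2 150.3, 281 and 297, and the excitatory vesicular transporter Slc17a6 7.27, 8.16 and 7.84. Slc6a5, the glycine transporter of inhibitory neurons, had 4.51, 5.68 and 6.27 FPKM, the GABA-synthesising Gad1 4.18, 7.95 and 3.25 and Gad2 3.66, 3.69 and 2.67. The vesicular GABA and glycine transporter Slc32a1 had 2.71, 1.3 and 2.55. Chat had 3.03, 8.44 and 7.6. Neuropeptides of the dorsal horn were unevenly spread. Sst had 671, 252 and 125 FPKM, Penk 293, 246 and 112, Npy 174, 63.4 and 51.0, and Tac2 56.9, 30.3 and 2.63. Each was highest in sham 1 and lowest in sham 3, and each kept that order after TMM scaling. On that scale Sst had 847, 213 and 117 and Tac2 71.8, 25.7 and 2.46. Cck, Tac1, Grp and Nts were also detected, and Nts ran the other way with 15.7, 31.4 and 34.7. In all 17 of 30 genes of other neurons were detected, against 37.2% of all protein-coding genes. Of the 17, 7 were highest in sham 1 in FPKM, against 11.4% of all detected genes. After TMM scaling 12 were, against 31.2% of all.

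Blood cell genes were among those that set sham 1 apart. S100a8 and S100a9, which form the neutrophil protein calprotectin, had 1056, 20.5 and 5.79 FPKM and 572, 14.9 and 5.74. Lyz2, the lysozyme of myeloid cells, had 592.5, 57.3 and 17.2. In sham 1 these stood 80.4-, 55.3- and 15.9-fold over the mean of the other two. The neutrophil granule genes Ngp (62.3, 1.07 and 0.09) and Camp (45.8, 1.06 and 0.3) and the neutrophil gene Retnlg (35.9, 2.21 and 0.86) were also among the 10 with the largest ratio. Genes were ranked by it where their mean reached 10 FPKM, which these did through sham 1. The remaining 13 of 16 leukocyte genes were not detected, the highest of them being Nkg7, a gene of cytotoxic lymphocytes, at 2.94, 0.96 and 1.11 FPKM. The T and B cell genes Cd3e, Cd3g, Cd4, Cd8a and Ms4a1 stayed at or under 0.21 FPKM, and the B cell gene Cd79a had 0.43, 0.1 and 0.12. Globin genes were present in every library, with Hba-a1 at 381, 16.4 and 55.4 FPKM and Hbb-bs at 179, 16.9 and 58.8, so the order was sham 1, sham 3, sham 2. Whether blood accounts for any other difference of sham 1 was not tested.

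**Figure D5:**
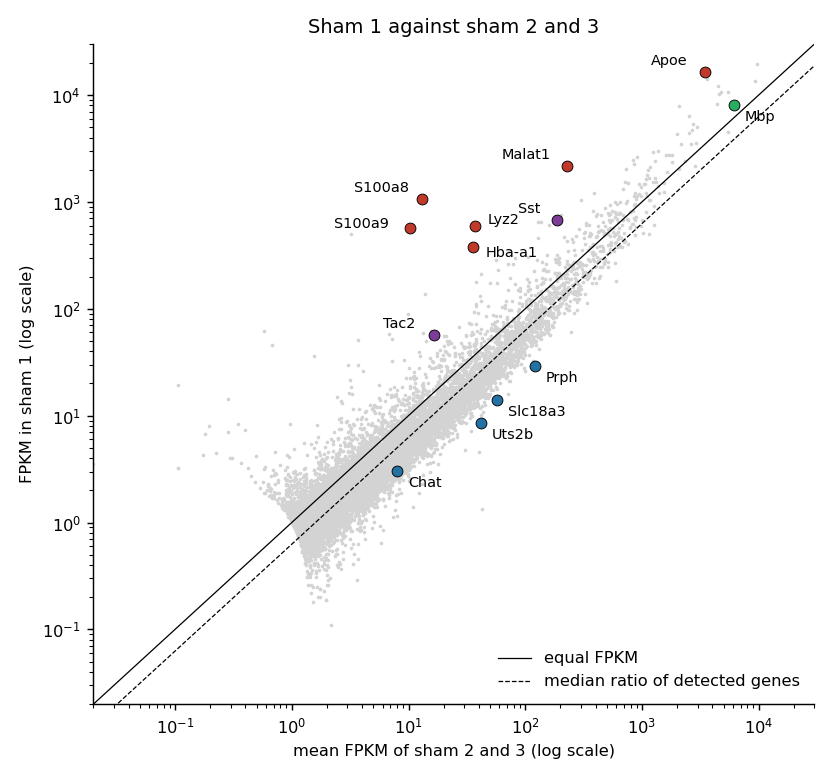
FPKM in sham 1 (y axis, log scale) against the mean FPKM of sham 2 and 3 (x axis, log scale), 1 grey point per gene; coloured points name blood, Apoe and Malat1 genes (red), neuropeptides (purple), motoneuron genes (blue) and Mbp (green). The solid line is equality and the dashed line the median ratio of 0.627; Chat, Slc18a3, Uts2b and Prph lie under the dashed line and S100a8, S100a9, Lyz2 and Hba-a1 far above both.

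The other genes that mark single libraries were of mixed kinds. They were ranked by ratio among genes with a mean of 10 FPKM or more over the 3 libraries. A gene can pass that mean through the single library where it is high, as Sprr1a did with sham 3. Its large ratio is then in part built in by the ranking. High in sham 1 were also Gm10800, a predicted gene with 498, 4.08 and 2.31 FPKM, the galectin Lgals3 and Lars2, a mitochondrial leucyl-tRNA synthetase. The nucleosome-binding Hmgn2 was low there, with 1.34, 46.0 and 39.5 FPKM from 52, 1933 and 2134 counts, as were Tmed2, 4933434E20Rik, Cd164l2, H4c8, Tmem204 and the immunoglobulin gene Ighm (15.8, 76.4 and 65.8). Sham 2 was set apart by Sgk1, a kinase induced by glucocorticoids, at 4.92, 30.9 and 4.37 FPKM, and by the vascular genes Ackr1 (5.01, 21.7 and 4.63) and Rgs5 (6.18, 21.3 and 9.05). In sham 3 the highest ratio was that of Sprr1a, a gene known to be induced in axotomised neurons, at 4.61, 0.63 and 80.3 FPKM from 47, 7 and 1144 counts, 30.6-fold over the mean of the other two. Atf3, a transcription factor of the same kind of response, had 1.91, 0.81 and 6.07, a mean of 2.93 FPKM that is under the ranking's limit. Gap43 (116, 116 and 104) and Jun (10.7, 18.4 and 15.1), also known from such responses, were not highest in sham 3. The interferon gene Ifi27l2a had 7.18, 10.4 and 58.3, and Padi2, Uts2, Npb, Calca, Cdkn1c and Ctsk were 2.2- to 2.9-fold over the other two. With 3 libraries these are values of single libraries.

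Sex-linked genes did not match across the libraries. Eif2s3y and Ddx3y, on the Y chromosome, had 3.46, 3.88 and 0.18 FPKM and 2.07, 3.11 and 0.07, and Xist, transcribed from the inactive X chromosome, had 0.0, 0.0 and 0.74. Sham 3 was thus the low one for the Y genes and the one with Xist. Any difference of sham 3 from the others and this difference cannot be told apart here.

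Genes with the steadiest levels came from several classes. Among detected genes with a mean of 10 FPKM or more, the lowest CV was that of Tma7-ps, a processed pseudogene of 195 exonic bases, at 223, 225 and 225 FPKM (CV 0.585%), of whose 50-base stretches 68.5% also occur in other genes. Atxn7l3b had 66.6, 65.9 and 64.9 FPKM and Vps36, an endosomal sorting subunit, 12.4, 12.7 and 12.6. Olfm1, Oaz1, Rtl8c, Pfdn1 and Rtn4 were also among the 15 steadiest, with CVs between 2.12% and 2.5%. Equality in FPKM means that these did not share the general shift of sham 1, so after TMM scaling they would be higher in it. Common reference genes differed in steadiness. The glucuronidase gene Gusb had 6.78, 7.59 and 7.15 FPKM (CV 5.65%), Ywhaz 33.4, 47.1 and 46.4 (CV 18.2%) and Hprt 141, 207 and 178 (CV 18.8%), all under the median CV of 30.1%. Above it were Gapdh with 7.16, 3.08 and 3.24 FPKM, at percentiles 85.5, 67.8 and 71.0, and Actb with 2766, 1607 and 1603. Gapdh is low for a glycolytic gene here, and 25.1% of its 50-base stretches occur in other annotated genes. The 6 glycolysis entries with 10% to 50% of such stretches, Gapdh among them, had medians of 103.8, 234.2 and 195.6 FPKM. The 15 entries with up to 10% had medians of 9.06, 21.02 and 14.1 FPKM. Whether reads of Gapdh were left out or assigned elsewhere was not tested.

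Energy metabolism dominated the upper range. The 80 entries for nuclear-encoded genes of the respiratory chain, with Atp5o listed under 2 identifiers, one of them without a count, had medians of 504.5, 470.1 and 497 FPKM, and 78 were detected. By complex the medians were 502, 469 and 569.8 for complex I, 97.2, 240.0 and 201.5 for II, 695, 536 and 674 for III, 770.0, 526 and 660.1 for IV and 507, 425 and 446 for V. Complex II was the lowest in each library, and its 4 genes have the longest median exon length. Ndufb6 of complex I was the steadiest member at 1398, 1326 and 1398 FPKM and Atp5k of complex V the least steady at 2044, 551 and 910.3. The 13 mitochondrially encoded proteins were all highest in sham 1 in FPKM and after TMM scaling, and 12 of them as TPM (11.4% of all detected genes were highest in sham 1 in FPKM), with mt-Cytb at 12023, 4106 and 4826 FPKM. In glycolysis, 19 of 22 entries were detected, with Aldoa listed under 2 identifiers. Ldhb, the heart-type lactate dehydrogenase subunit, had 2398, 2502 and 2162 FPKM and exceeded Ldha 44.3-, 17.0- and 24.7-fold, and Aldoc exceeded Aldoa 1.43-, 1.91- and 1.73-fold.

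Genes of protein synthesis and turnover were intermediate. Of 89 entries named as cytosolic ribosomal proteins, 6 are annotated as pseudogenes, of which 3 were detected. Among the 83 protein-coding ones 79 were detected, with medians of 53.9, 45.8 and 60.4 FPKM and Rplp1 at the top with 2007, 948 and 1307. Many of these genes have processed pseudogenes, so their levels are uncertain. Of 39 proteasome genes 37 were detected, with medians of 44.1, 76.4 and 61.0 FPKM, led by Psmc5 and Psmb5, and 35 of the 37 were lowest in sham 1 in FPKM, against 78.3% of all detected genes, and 22 after TMM scaling, against 52.1%. Chaperones were detected for 30 of 32. The inducible cytosolic Hsp90aa1 was the most variable at 1214, 341 and 434 FPKM, while the constitutive Hspa8 had 315, 364 and 394 and the inducible Hspa1a 0.59, 1.57 and 2.23. Among activity-dependent genes 11 of 22 were detected, against 37.2% of all protein-coding genes. Jund had 38.6, 39.7 and 18.1 FPKM, Fos 13.6, 16.5 and 16.4 and Arc 4.68, 7.57 and 6.64, while Npas4 was at 0.0 in every library.

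Genes linked to motoneuron disease were detected for 29 of 38, against 37.2% of all protein-coding genes. Chchd10, a mitochondrial protein, led with 1146, 960 and 1011 FPKM, then Tuba4a with 293.5, 402 and 363 and the autophagy receptor Sqstm1 with 137, 263.5 and 258. Sod1 had 87.9, 92.3 and 80.9 FPKM, Stmn2 137, 149 and 170.0, C9orf72 5.93, 15.5 and 13.5 and Tardbp, which encodes TDP-43, 2.53, 4.2 and 3.62. After TMM scaling 13 of the 29 were lowest in sham 1, against 52.1% of all detected genes, and 11 highest, against 31.2%.

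Protein-coding genes took 86.8%, 91.3% and 88.7% of FPKM, and processed pseudogenes 3.85%, 3.47% and 3.69%. Outside the protein-coding genes, after mt-Rnr2, Gm23935 and mt-Rnr1 the highest were the pseudogenes Gpx4-ps2 (1525, 1029 and 1473 FPKM), Gm10123, Gm14539, Gm10039 and Gm12338. Most stretches of Gpx4-ps2, 83.9%, occur in other genes, so its level and that of its parent cannot be told apart. Malat1 had 2166, 231.5 and 221 FPKM, Gas5 37.3, 36.1 and 40.9, Meg3 17.7, 7.03 and 6.98 and Neat1 3.18, 2.16 and 1.48. Of the 7 detected members of a list of nuclear noncoding RNAs, 5 were highest in sham 1 in FPKM, against 11.4% of all detected genes, and 6 after TMM scaling, against 31.2%. Gas5 was among the latter, at 47.0, 30.6 and 38.3 after scaling. Snhg11, counted in this list although GENCODE M21 classes it as protein-coding, was highest in sham 1 on both scales. Peg13 was lowest in sham 1 on both scales, at 7.22, 12.1 and 10.6 FPKM and at 9.10, 10.2 and 9.97.

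Promoter composition followed detection. Genes with no count in any library had a median of 2 CpG dinucleotides in the window, those counted but not detected 12, and those detected 20 or 21 at each level. GGGCGG was found in 9.3% of the first, 47.8% of the second and 67.8% of the detected genes under 10 FPKM, 67.8% from 10 to 100 and 58.5% at 100 or more. TATAAA ran the other way, from 21.2% of genes with no count to 3.88%, 5.06% and 7.87% of the 3 detected classes, rising again with level. CCAAT was found in 38.1% to 43.1% of each class. The window of Slc18a3, with its 27 CpG dinucleotides, lies above the median of the detected classes, and those of Chat and Prph, with 10 each, lie under it.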

How the data were processed

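The 3 sham libraries were taken from a table of 55401 genes that the authors deposited, through columns named for sham replicates 1 to 3. The 12 other columns of per-sample values were not used. Per the labels' protocols, the authors aligned paired-end reads with Hisat2 2.0.1 and made the deposited counts with HTSeq 0.6.1. Reads were mapped to mm10 according to the submitters' processing notes. Not given in the sources used here are the annotation release, the strand setting and the treatment of reads with several matches, so levels of genes with close copies or antisense partners are uncertain. Per the file headers the other columns are FPKM. Recomputing FPKM from the counts, the exonic lengths and the library totals gave 100% of the deposited values within 0.006.

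No test was run. A gene was called detected at 1 FPKM or more in all 3 libraries. Percentiles are ranks by FPKM among genes with at least 1 count in that library, and the CV is the SD over the mean of 3 FPKM values. Gene classes and the share of each gene's 50-base transcript stretches found in another gene came from GENCODE M21, which held 99.5% of the identifiers. Promoter windows were matched by symbol to RefSeq. TMM and median-ratio factors came from edgeR 4.0.16 in R 4.3.3, and the FPKM of single genes and lists after TMM scaling, and the lists as TPM, were added after seeing the data. The spread, percentile and stretch calculations were tested on simulated data.

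The markers and the 40 gene lists were chosen with earlier results of these data known, so none of the patterns is independent evidence. Named genes are the 40 of highest mean FPKM, members of the lists (for long lists mainly the 8 highest and the steadiest and least steady), the 15 of highest and lowest CV at a mean of 10 FPKM or more, the 10 highest outside protein-coding genes, the 10 of most extreme ratio in each library and the 10 nearest to Chat. Not every gene the rule selects is printed, and a few others, among them common reference genes, were named after their values were seen. Counts include PCR copies, and 1 count in a gene of 1000 exonic bases is worth 0.0791, 0.0728 and 0.0566 FPKM in sham 1, 2 and 3. Whether the spread between libraries is that between animals or is technical is not stated.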

Additional observations from a re-analysis of the deposited data

How the results depend on the processing

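No paired analysis was possible because only the sham group was described and no value comes from a test. The number of detected genes was 9069, fell to 4117 at a threshold of 5 FPKM and rose to 13935 with 10 counts in every library as the rule. It was between 9185 and 10088 when a library was left out, 11524 at 0.5 FPKM and 11666 at 1 TPM. The median percentile of the motoneuron markers was 79.0 among counted genes and 46.9 when ranked only among detected genes, and that of the oligodendrocyte list was 97.8 and 94.55. The median CV depended most on the setting. It was 30.1% with all 3 libraries, between 11.7% and 38.1% when a library was left out, with the lowest value without sham 1, and 28.1% without mitochondrially encoded genes and Malat1. It was 35.2% as TPM, 20.04% with TMM scaling, 19.99% with median-ratio scaling and 33.3% without a filter on low values. The share of FPKM in the 100 most abundant genes, 45.5% ± 11.2 (SD, n = 3), was between 39.1% and 49.8% when a library was left out, with the lowest value without sham 1. Of 50 named genes, 7 had a mean level that moved by over 1.5 times without sham 1. Apoe fell from 7795 to 3486 FPKM, Gm23935 from 7108 to 3592, mt-Cytb from 6985 to 4466, Mt1 from 4015 to 2074, Tmsb4x from 3823 to 2530, Apod from 1480 to 908 and Sparc from 1381 to 831. Without sham 2 that held for Mnx1 alone, from 1.40 to 0.915, and without sham 3 for none of the 50. All 50 moved as TPM, where each library is multiplied by 1 factor. Depth limits the low end: genes near 1 FPKM rest on few counts, as Mnx1 does with 19, 73 and 46, and a gene absent at these depths may be present at a lower level.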

Other observations

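Calcium-handling genes outside the channels were high in the sham libraries. Of 29 genes of calcium buffers and pumps 25 were detected, with the calmodulin gene Calm2 at 2021, 2348 and 1796 FPKM in sham 1, 2 and 3 and S100a1 at 1223, 993.5 and 1177. The plasma membrane calcium pumps Atp2b2 (5.36, 5.33 and 6.46) and Atp2b1 (5.74, 4.34 and 4.29) were steady in FPKM. Calb1, the buffer calbindin, stood at 3.57, 5.38 and 3.08 FPKM, far under Pvalb at 568, 478 and 653. S100a6 varied widely, at 212, 32.2 and 50.7.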
